A study of Arabidopsis thaliana with 108 samples.

Results

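H3K27me3 over the whole Arabidopsis genome was compared between TRB3-ZF and fwa plants from ChIP-seq peak lists. The members are the 4 H3K27me3 libraries of these genotypes, 2 of TRB3-ZF and 2 of fwa, out of 108 samples in the series, and every peak on chromosomes 1 to 5 was used. All 4 are in the Columbia-0 ecotype and carry the fwa epiallele, in which DNA methylation of the FWA promoter is heritably lost, FWA is over-expressed and flowering is late. TRB3-ZF plants carry in addition a transgene that joins TRB3 to the artificial zinc finger ZF108, which was designed to bind the FWA promoter. The methods describe a TRB3-ZF fusion under the TRB3 promoter and a ZF-TRB3 fusion under the UBQ10 promoter, and do not say which of them was used for ChIP-seq. They give T2 plants chosen for early flowering, which selects the group by its phenotype, and state neither the number of lines nor of plants behind a library. The labels give floral tissue from plants aged 5 to 6 weeks, whereas the methods give leaves of somewhat younger plants. Nothing states that the replicates were grown separately, so p-values measure only the spread between these libraries, which may be technical. Further libraries were set beside these 4: H3K4me3 of TRB3-ZF (n = 2) and fwa (n = 3), H3K27me3 of Col-0 and of the trb1/2/3 triple mutant (n = 2 each, seedlings aged 2 to 3 weeks), and FLAG ChIP-seq of the TRB proteins and of JMJ14. By their labels, the FLAG plants were as old as those of the 4 main libraries. H3K27me3 of TRB1-ZF and TRB2-ZF, where TRB1 or TRB2 is joined to ZF108 in the same fwa background, came from replicate 1 only. Each of them is thus a single library without a measure of spread.

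H3K27me3 is set by Polycomb repressive complex 2 (PRC2) and marks genes that are kept silent, in plants mostly genes of development and of the responses to the environment. H3K4me3 marks the start of active genes. The TRB proteins are MYB-domain proteins that bind short telomere-like motifs in promoters, the telobox among them, and are known to associate with PRC2 and with the H3K4me3 demethylase JMJ14.

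The distinct peaks of the 4 lists were merged where they overlapped or touched, which gave 13991 regions. A region with a peak in both TRB3-ZF libraries and in neither fwa library was called gained, and a region with a peak in both fwa libraries and in neither TRB3-ZF library was called lost. Sequences of 300 bases around the summit of the strongest peak are shown for 3 of the strongest of these regions, so that the sites behind the values below can be seen. They are from the RefSeq sequence of TAIR10.1 (plus strand, 5′ to 3′), whose chromosomes are those of the TAIR10 build of the peak lists. The first is the strongest gained region, at AT4G09770 (chr4:6153885-6154184, in no annotated gene). The second is a gained region at AT4G04078 (chr4:1961545-1961844), over the coding sequence of AT4G04078 and an exon of the antisense non-coding gene AT4G04077, where none of the other H3K27me3 lists examined had a peak. The third is the strongest lost region, upstream of PUP9 (chr1:6272037-6272336), in the exon of the non-coding gene AT1G05397. Capitals mark each match, on either strand, to 4 motifs that were searched, the telobox AAACCCTA, the telomere repeat TTAGGG, which can overlap a telobox, the GAGA motif GAGAGA and the G-box CACGTG.
AT4G09770 region: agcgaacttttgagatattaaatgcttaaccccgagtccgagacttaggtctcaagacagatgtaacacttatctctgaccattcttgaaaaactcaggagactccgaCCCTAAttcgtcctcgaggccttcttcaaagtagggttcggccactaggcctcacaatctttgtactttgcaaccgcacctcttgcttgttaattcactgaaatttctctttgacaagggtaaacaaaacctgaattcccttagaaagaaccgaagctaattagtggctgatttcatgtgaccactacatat
AT4G04078 region: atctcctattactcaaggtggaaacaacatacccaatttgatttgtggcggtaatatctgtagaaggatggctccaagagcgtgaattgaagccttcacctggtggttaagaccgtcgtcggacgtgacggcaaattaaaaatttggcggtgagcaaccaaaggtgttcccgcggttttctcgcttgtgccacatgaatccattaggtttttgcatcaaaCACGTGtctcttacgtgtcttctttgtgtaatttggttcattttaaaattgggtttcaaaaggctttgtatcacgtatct
PUP9 region: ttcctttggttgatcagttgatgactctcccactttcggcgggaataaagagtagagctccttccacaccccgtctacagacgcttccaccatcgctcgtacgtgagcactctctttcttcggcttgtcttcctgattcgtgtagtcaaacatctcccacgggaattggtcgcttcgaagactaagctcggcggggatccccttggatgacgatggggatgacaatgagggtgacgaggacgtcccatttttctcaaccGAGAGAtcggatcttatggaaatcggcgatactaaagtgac
The fourth sequence is a stretch of 30 bases of the leader of BON3 (chr1:2842117-2842146), in the fourth strongest lost region, which holds the telobox, the telomere repeat and the GAGA motif side by side.
BON3 leader: TTAGGGTTTaaatctagagataGAGAGAGA
The telobox was in 1.46% of the summit windows of the gained regions (12 of 822), in 7.04% of those of the lost regions (40 of 568) and in 4.23% of the windows of all 13991 regions. The telomere repeat was in 9.73%, 12.1% and 11.2% of the windows in the same order, the GAGA motif in 24.7%, 23.4% and 26.8%, and the G-box in 1.95%, 5.28% and 5.32%. The low telobox share was not particular to the gained regions. It was 1.60% (9 of 563) for regions with a peak in both replicate 2 libraries only and 3.66% (15 of 410) for both replicate 1 libraries only. For regions with a peak in all 4 lists it was 5.77%. A match describes the sequence only.

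H3K4me3 at the floral markers split the libraries by replicate number. H3K4me3 peaks lay on 6 and 1 of the 6 floral organ genes AG, AP3, PI, SEP1, SEP2 and SEP3 in TRB3-ZF replicates 1 and 2, and on 6, 0 and 6 of them in fwa replicates 1, 2 and 3. The summed H3K4me3 fold over these genes was 45.7 and 2.88 in TRB3-ZF, against 51.0, 0 and 51.3 in fwa. The H3K4me3 libraries with the number 2 of both genotypes thus had no or nearly no called peak at these 6 genes, although their label gives floral tissue. Other floral MADS-box genes did not all follow. Of 13 listed, 9 had H3K4me3 peaks in both replicate 1 and neither replicate 2 library, whereas SEP4 and FUL had them in all 4. SEP4 had 7.86 in TRB3-ZF and 4.30 in fwa replicate 2, above replicate 1 (2.83 and 3.97). FUL had 2.87 and 3.45 in replicate 2, below replicate 1 (6.46 and 7.38). The photosynthesis genes RBCS1A, LHCB1.1, LHCB1.2, LHCB3, LHCA1 and PSAD2 had H3K4me3 peaks on 4 and 6 of their 6 members in TRB3-ZF and on 4, 6 and 4 in fwa, and LHCB1.1 and LHCB1.2, which encode antenna proteins of photosystem II, were the ones without a peak in replicates 1 and 3. The summed H3K4me3 fold over the photosynthesis genes was 40.3 and 49.8 in TRB3-ZF, against 33.1, 39.1 and 40.3 in fwa, with TRB3-ZF higher within both numbers. Among them, H3K27me3 peaks reached only the span of RBCS1A with its 1 kb upstream, with folds of 7.32 and 10.1 in TRB3-ZF, against 4.16 and 4.31 in fwa. They covered 339 and 295 bp of that span in TRB3-ZF and 440 and 130 bp in fwa. The region upstream of RBCS1A that all 4 libraries had (chr1:25050329-25060301) had 7.32 and 10.1 in TRB3-ZF, against 6.86 and 7.96 in fwa. Its log2 change was 0.22 (limma, adjusted p = 0.721). The part of these levels in the results below was not tested. H3K27me3 peaks lay on all 6 floral genes in each of the 4 H3K27me3 libraries, with summed folds of 31.3 and 43.1 in TRB3-ZF and of 35.0 and 45.5 in fwa. The sources do not state whether equally numbered libraries of the different marks came from the same material. In a mixed tissue, fewer cells with a mark and a lower mark per cell cannot be told apart. Since each number holds a library of either genotype, library values are given below in the order of their numbers.

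**Figure D1:**
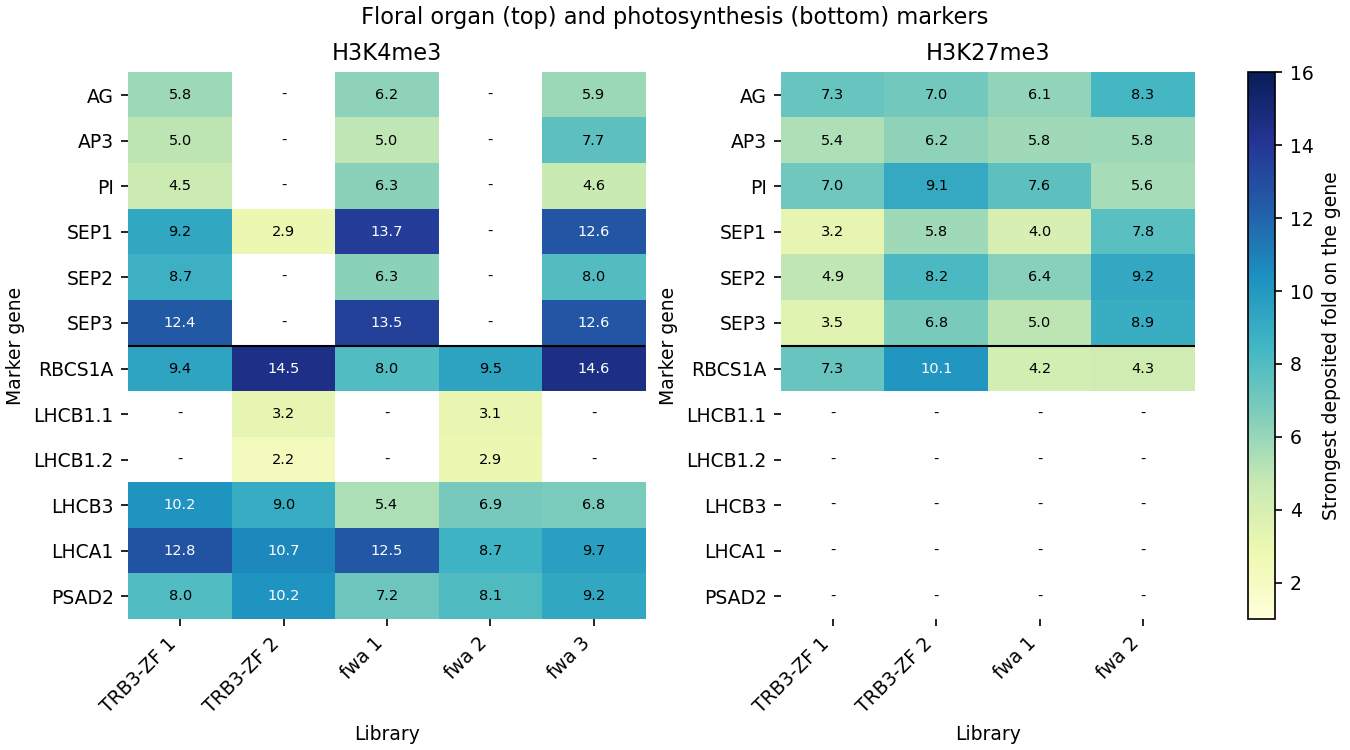
Strongest deposited fold enrichment of the peaks on 6 floral organ and 6 photosynthesis markers (rows, gene body and 1 kb upstream) in the H3K4me3 and H3K27me3 libraries (columns), with a dash where no peak was called. H3K4me3 at the floral genes is found in the replicate 1 and 3 libraries and at no more than 1 of 6 genes in the replicate 2 libraries of both genotypes.

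The number and extent of H3K27me3 peaks were higher in TRB3-ZF than in fwa within both replicate numbers, by less than the replicate numbers differed. TRB3-ZF replicates 1 and 2 had 14323 and 11772 distinct peaks, and fwa replicates 1 and 2 had 13688 and 11390. The peaks covered 13.1 and 15.8 Mb in TRB3-ZF and 11.6 and 14.7 Mb in fwa. Replicate 1 lists held more and shorter peaks than replicate 2 lists in both genotypes, with median widths of 484 and 642.5 bp in TRB3-ZF and of 473 and 701 bp in fwa. The mean number of peaks differed by 508.5 between the genotypes (13047.5 in TRB3-ZF and 12539 in fwa, exact permutation test, two-sided, p = 0.667, n = 2 each) and by 2424.5 between the replicate numbers. The mean covered length was 14.4 Mb in TRB3-ZF and 13.1 Mb in fwa (exact permutation test, two-sided, p = 0.667, n = 2 each). With 2 libraries against 2 the smallest p that this test can give is 0.333. The lists carry no read counts, so the depth is unknown and the absence of a peak is not the absence of the mark. The lowest -log10 q in the lists was 1.30.

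A total of 822 regions were gained and 568 were lost in both libraries (5.88% and 4.06% of the 13991 regions). The same libraries were also split by replicate number, and the replicate 2 split was about as common as the lost class. Peaks in both replicate 1 libraries only were found at 410 regions (2.93%), and peaks in both replicate 2 libraries only at 563 (4.02%). The remaining split, with a TRB3-ZF and a fwa library of unlike numbers, held 97 regions (0.693%). The gained class was the largest of these 5 classes with the lists as deposited, but the order depended on the peaks taken. With every list cut to the length of the shortest, 789 regions were in the replicate 2 pair only, 644 were gained and 530 lost, and with a -log10 q of at least 10, 344 were gained and 363 lost. A further 5284 regions had a peak in all 4 lists, 1361 in 3 lists and 4886 in a single list. Within replicate 1 alone, 2220 regions had a peak in TRB3-ZF and not in fwa, and 1765 the reverse. Within replicate 2, the counts were 2917 and 2319. Classes of 3 libraries are easier to enter: without TRB3-ZF replicate 1 or 2, 2632 or 1727 regions were gained and 863 or 953 lost, and without fwa replicate 1 or 2, 1062 or 1263 were gained and 1972 or 1335 lost.

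**Figure D2:**
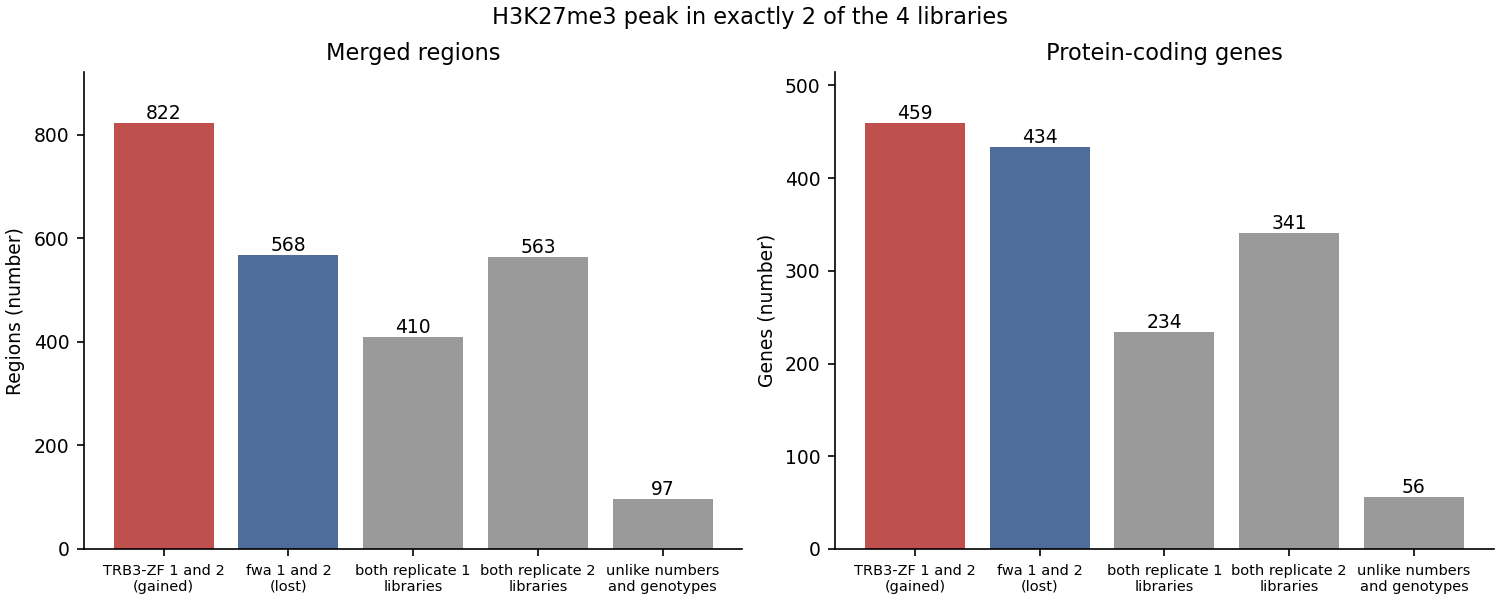
Number of merged regions (left) and protein-coding genes (right) with a H3K27me3 peak in exactly 2 of the 4 libraries, by which libraries these are. The gained class (822 regions, 459 genes) is the largest, the lost class (568 regions, 434 genes) follows for genes and is level with the replicate 2 class (563) for regions, and the class of unlike numbers (97 regions, 56 genes) is the smallest. With every list cut to the length of the shortest, the replicate 2 class is the largest (789 regions, 475 genes).

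Gained and lost regions were smaller and weaker than the regions shared by all libraries. Gained regions had a median width of 673.5 bp and a median mean fold of 2.80 over their libraries, and lost regions had 519 bp and 2.51. The regions present in all 4 lists had a median width of 2057.5 bp and a median fold of 4.15. In all, gained regions covered 0.789 Mb and lost regions 0.389 Mb. A -log10 q of at least 10 in both of their libraries was reached by 82 gained regions (9.98%) and 32 lost regions (5.63%), compared with 52.4% of the shared regions in all 4. Gained regions made up 4.77% (chromosome 4) to 7.90% (chromosome 2) of the regions of a chromosome, and lost regions 3.57% (chromosome 4) to 4.46% (chromosome 1). A region present in all 4 lists lay within 1000 bp of 37.0% of the gained and 33.1% of the lost regions, and of 36.4% of all regions. These shares were close to each other, so neither class lay mostly at the border of shared regions.

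The 10 gained regions with the highest mean fold had folds of 3.64 to 6.75 in the TRB3-ZF libraries and no called peak in fwa. With peaks up to 500 bp apart joined, 6 of the 10 were still gained. The strongest, of 5453 bp (chr4:6151830-6157282), covered AT4G09770, which encodes a TRAF-like family protein, with folds of 6.16 and 6.71 in TRB3-ZF. Neither Col-0 nor trb1/2/3 had a peak there, while TRB1-ZF and TRB2-ZF replicate 1 had 2.31 and 3.83. At SWEET17, which encodes a fructose transporter of the vacuole, the gained region (chr4:9032276-9034949) had folds of 6.66 and 4.87 in TRB3-ZF. Weaker peaks were called at this site in TRB1-ZF (3.10), TRB2-ZF (3.61), Col-0 replicate 2 (2.20) and trb1/2/3 (2.46 and 2.36). The region at AT4G18260 (chr4:10095664-10098309), a cytochrome b561 family gene, had 6.28 and 5.04 in TRB3-ZF. Both of these genes thus carried the mark at a lower fold in some library outside the comparison. The serine carboxypeptidase-like gene scpl10 (chr2:9791753-9796808) had 5.00 and 5.82 in TRB3-ZF, and weaker peaks in Col-0 (1.89 and 1.96) and trb1/2/3 (3.24 and 4.27). AT5G07572 (uncharacterized, chr5:2394863-2397776) had 6.19 and 4.35. AT3G43990 (chr3:15783557-15786933), which encodes a protein with a BAH domain, which is known from proteins that bind histones, had 5.42 and 4.94. The region at AT4G04078, shown above, had 4.44 and 6.20 in TRB3-ZF and was the only 1 of the 10 without a peak in any of the Col-0, trb1/2/3, TRB1-ZF and TRB2-ZF lists examined. The region near the hydrolase gene AT1G52700 (chr1:19635014-19637719; 5.42 and 6.75) reached only 38 bp into the span of that gene, which had H3K27me3 peaks in all 4 lists. The other 2 of the 10 lay on chromosome 4, away from any protein-coding gene.

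The 10 strongest lost regions had folds of 3.46 to 9.23 in fwa and no called peak in TRB3-ZF. The strongest, of 3957 bp (chr1:6269925-6273881), began upstream of PUP9, a member of the purine permease family that is annotated here with a very short gene model, and had folds of 9.23 and 5.65 in fwa. Its folds were 6.13 and 5.77 in Col-0, 2.58 and 2.24 in trb1/2/3, 7.73 in TRB1-ZF and 4.30 in TRB2-ZF, so that of all H3K27me3 lists examined here it was missing in TRB3-ZF only. At BON3 (chr1:2841632-2845506), a copine gene of the BONZAI family, whose member BON1 is known for restraining immune receptor genes, fwa had 3.68 and 6.04, and Col-0 had 4.20 and 5.10. At AT5G60610 (chr5:24363502-24366661), an F-box gene with leucine-rich repeats, fwa had 5.24 and 5.49, and Col-0 had 6.41 in each library. These genes carried the mark in wild-type seedlings at about the fold of fwa. The sulfate transporter gene AST56 (chr1:29322243-29323479) had 4.84 and 4.66 in fwa, and the defensin-like gene LCR72 (chr2:544301-545507) had 4.74 and 4.03. A lost region upstream of the RING/U-box gene AT1G18780 (chr1:6477575-6477888) had 4.99 and 3.83. That gene with its 1 kb upstream had H3K27me3 peaks in 3 of the 4 lists, so the gene itself was not in the lost class. RCAR3, which encodes a receptor of abscisic acid, lost a region upstream of its gene start (chr5:21559255-21560343) with 4.75 and 3.95 in fwa. AT5G61100 (chr5:24579036-24580404) had 3.46 and 6.00 in fwa. The uncharacterized gene AT3G29633 (chr3:11452407-11453559) stood apart, with 6.20 and 4.96 in fwa, 4.88 in TRB1-ZF and 2.79 in TRB2-ZF, and no called peak in any Col-0 or trb1/2/3 list.

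**Figure D3:**
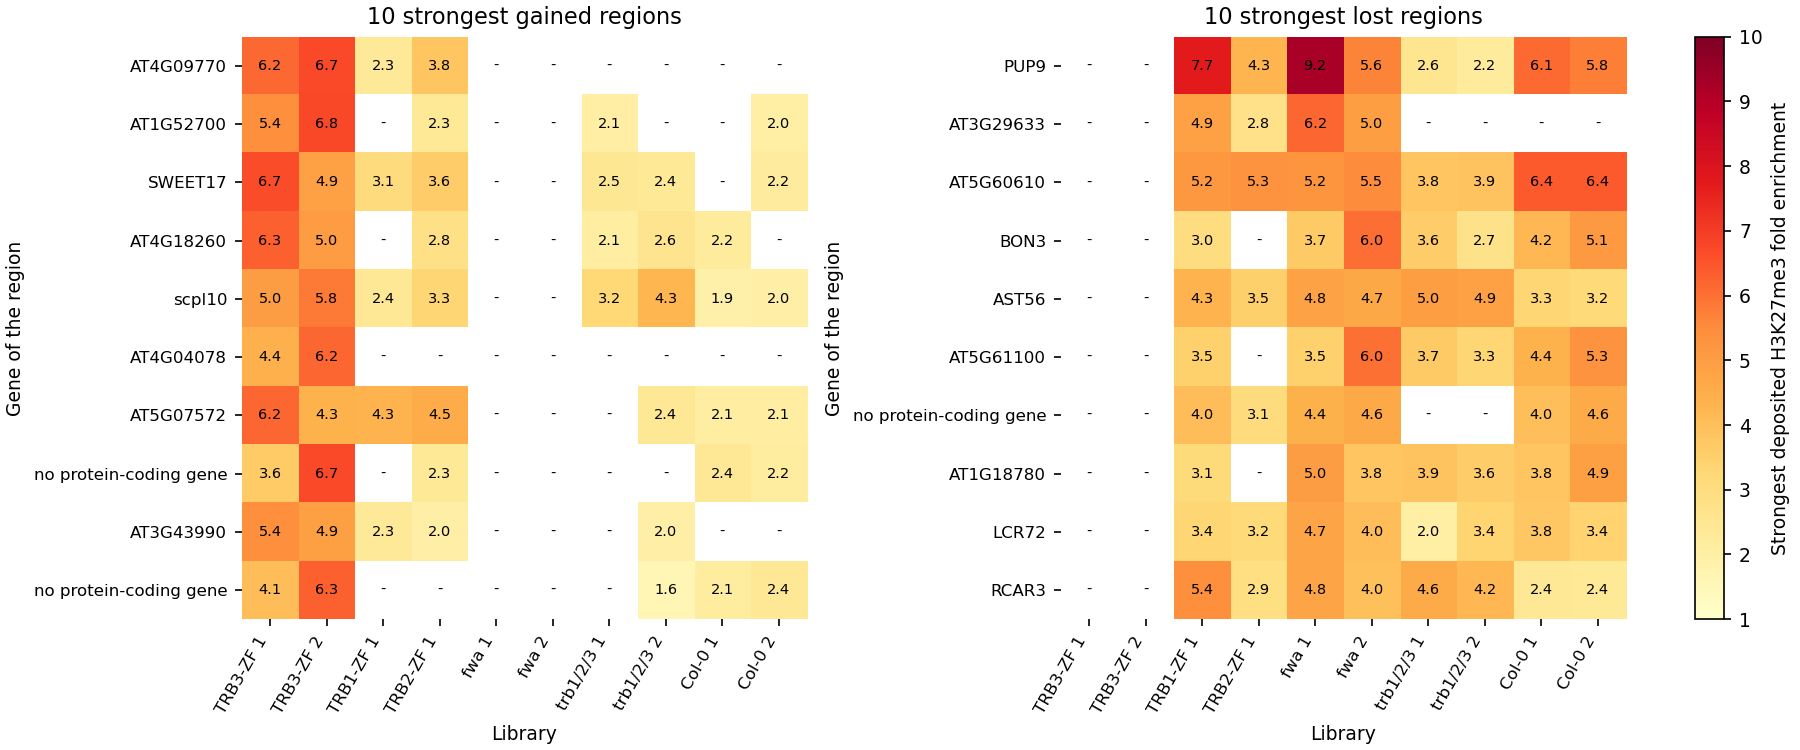
Strongest deposited H3K27me3 fold enrichment in the 10 gained (left) and 10 lost (right) regions with the highest mean fold (rows, by gene) in TRB3-ZF, TRB1-ZF, TRB2-ZF, fwa, trb1/2/3 and Col-0 libraries (columns), with a dash where no peak was called. The gained regions have 3.64 to 6.75 in TRB3-ZF and at most 4.53 elsewhere, and 9 of the 10 lost regions have peaks in both Col-0 libraries.

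In Col-0, gained regions were mostly without H3K27me3 and lost regions mostly with it. Peaks in both Col-0 libraries lay on 18.1% of the gained regions (149 of 822), on 79.4% of the lost regions (451 of 568) and on 61.5% of all regions. Neither Col-0 library had a peak on 65.9% of the gained and 8.98% of the lost regions, and on 29.1% of all. Other classes had like shares. Neither Col-0 library had a peak on 60.8% of the regions found in a single list, and both had one on 81.3% of those in 3 lists. The classes were set by the peaks of fwa, which shares the Columbia-0 genome with Col-0, and the Col-0 plants were seedlings, so these shares are a description. In trb1/2/3 the lost regions were not mostly marked: both libraries had a peak on 25.3% of the gained and 38.7% of the lost regions, and on 54.1% of all, and neither had one on 63.6%, 45.2% and 37.2%. FLAG-TRB3 peaks, called in at least 2 of its libraries, lay on 5.47% of the gained regions (45 of 822), on 19.2% of the lost regions (109 of 568) and on 17.4% of all. FLAG-TRB1 peaks lay on 6.93%, 19.9% and 16.0% of them, FLAG-TRB2 peaks on 7.79%, 22.5% and 21.5%, and FLAG-JMJ14 peaks on 5.35%, 16.9% and 12.3%, in the same order. JMJ14 had only 2 FLAG libraries, fewer than each TRB protein. The rule was thus stricter for it, and its shares cannot be set against theirs. All 4 proteins had a lower share on gained regions than on regions in general, and about the share of the regions found in a single list (7.12% for FLAG-TRB1, 8.19% for FLAG-TRB2, 5.57% for FLAG-TRB3 and 5.75% for FLAG-JMJ14). Where ZF108 itself binds was not analysed here, so the gained regions were not set against its sites. A protein-coding gene body was touched by 51.3% of the gained, 59.7% of the lost and 62.1% of all regions, and no gene body of any kind by 39.1%, 31.9% and 30.2%.

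**Figure D4:**
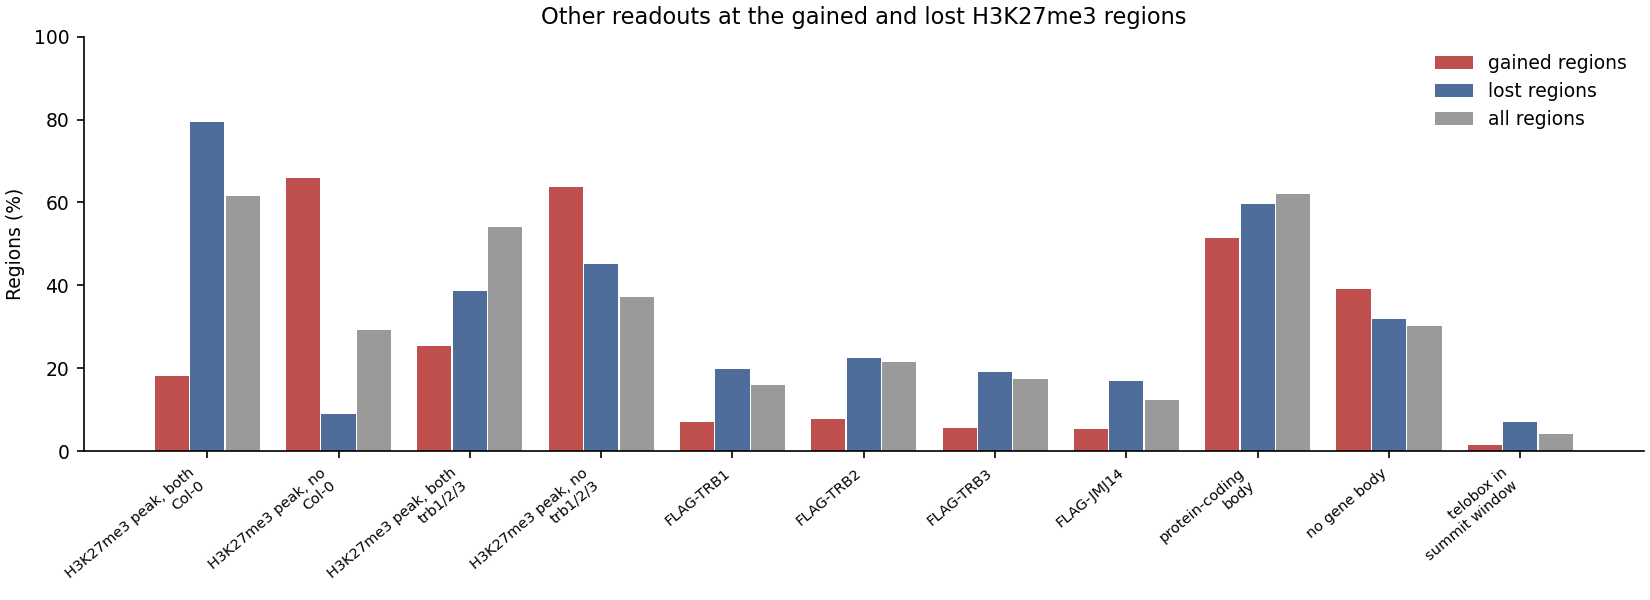
Share of the 822 gained, 568 lost and all 13991 regions (bars, in percent) that have a H3K27me3 peak in both or neither library of Col-0 and of trb1/2/3, a FLAG ChIP-seq peak of each protein in at least 2 libraries, a given gene overlap, or a telobox within the 300 bases around the summit. Lost regions carry H3K27me3 in both Col-0 libraries in 79.4% of cases and gained regions in 18.1%.

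Among 27444 protein-coding genes, each taken with the 1 kb upstream, 459 gained a H3K27me3 peak in both TRB3-ZF libraries (1.67%) and 434 lost it (1.58%). Peaks in the replicate 1 pair only were found at 234 genes (0.853%), in the replicate 2 pair only at 341 (1.24%), and in unlike numbers at 56 (0.204%). With every list cut to the length of the shortest, 408 genes were gained, 436 lost and 475 in the replicate 2 pair only, and with a -log10 q of at least 10, 423 were gained and 500 lost. Without TRB3-ZF replicate 1 or 2, 870 or 669 genes were gained and 708 or 800 lost, and without fwa replicate 1 or 2, 632 or 803 were gained and 1034 or 695 lost. H3K27me3 peaks lay on 8026 and 8412 genes in TRB3-ZF and on 8060 and 8691 genes in fwa, and 6297 genes had one in all 4 lists. Of the 459 gained genes, 337 touched a gained region, whereas 78 touched only the edge of a region that all 4 libraries had, where peaks of unequal length reached the gene in a single genotype. Of the 434 lost genes, 325 touched a lost region and 75 only such an edge. A gene can therefore enter a class through the end of a shared peak, and FIE, described below, was of that kind.

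In the 5284 regions with a peak in every list, the fold itself could be compared. The log2 of the strongest fold in each region, centred on the median of its library, correlated at 0.741 between the TRB3-ZF libraries and at 0.716 between the fwa libraries. Across genotypes it was 0.636 for the replicate 1 pair, 0.609 for the replicate 2 pair, and 0.560 and 0.540 for unlike numbers. These correlations are across regions, which are not independent replicates. The genotypes did not overlap at 1214 regions where TRB3-ZF was higher (23.0% of those fitted) and at 1277 where it was lower (24.2%). In the limma fit without the replicate number, 3 regions rose (0.0568%) and none fell (0.00%) at an adjusted p of 0.05, with 876 regions at an unadjusted p under 0.05. With the replicate number as a block, limma called 270 rises (5.11%) and 187 falls (3.54%). That fit leaves 1 residual degree of freedom, and limma then used a common standard error of 0.241 on the log2 scale for every region, so its p-values rest on the pooled spread of all regions. The differences between TRB3-ZF and fwa had the same sign within both replicate numbers at 3406 regions (64.5%). Without TRB3-ZF replicate 1 or 2 the fit without the block called 20 or 13 rises and 18 or 4 falls, and without fwa replicate 1 or 2 it called 70 or 41 rises and 33 or 47 falls.

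**Figure D5:**
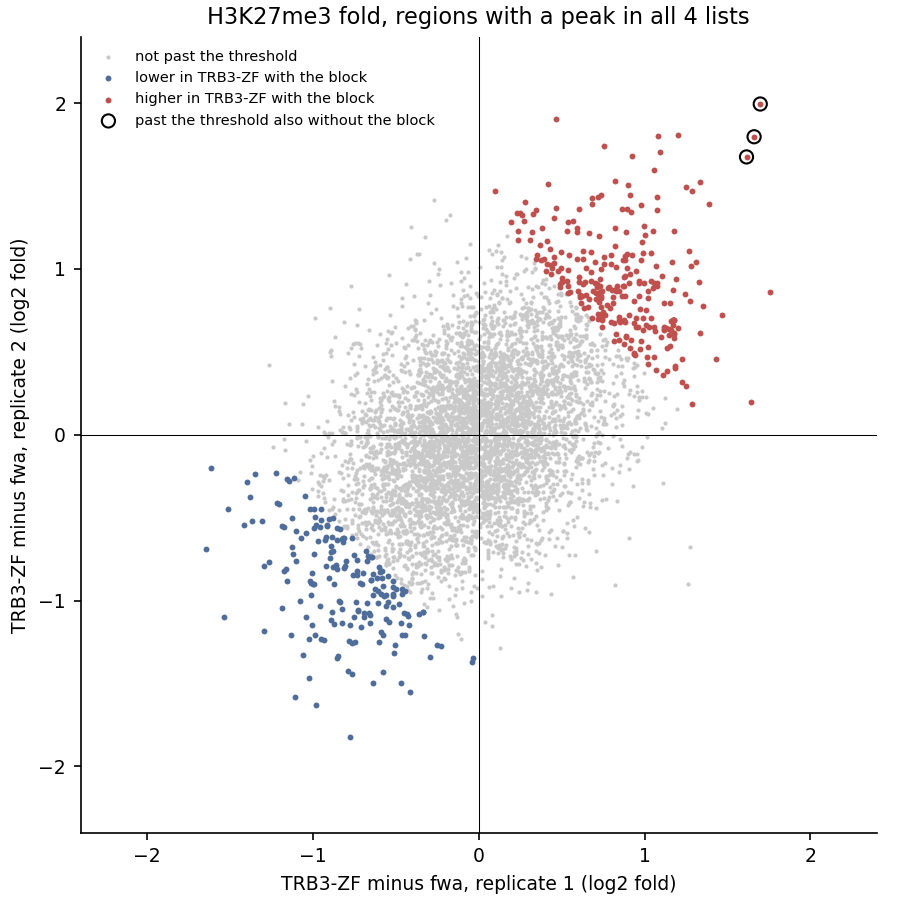
Difference in log2 H3K27me3 fold, TRB3-ZF minus fwa, within replicate 1 (horizontal) and within replicate 2 (vertical), for the 5284 regions with a peak in all 4 lists (points, libraries centred on their medians). Coloured points pass the limma fit with the replicate block (270 higher, 187 lower in TRB3-ZF), and the circled points are the 3 regions that also pass without it, which lie at the upper right.

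The 3 regions that rose in both fits were weak in fwa and strong in TRB3-ZF. The region at AT5G42500 (chr5:16994323-16997931), which encodes a dirigent-like protein, a family known for guiding the coupling of lignan precursors, had folds of 7.58 and 6.02 in TRB3-ZF, against 2.32 and 1.52 in fwa. Its log2 change was 1.85 (SE 0.28, limma, adjusted p = 0.0247). AT2G14247 (uncharacterized, chr2:6030913-6036756) had 6.35 and 6.86 in TRB3-ZF, against 2.00 and 1.98 in fwa (log2 change 1.73, SE 0.24, limma, adjusted p = 0.0247). The fwa peaks of that region lay outside the span of AT2G14247 and its 1 kb upstream, which was covered in TRB3-ZF only, so the gene itself was in the gained class. The F-box gene AT3G44090 (chr3:15837483-15841898) had 6.70 and 7.57, against 2.17 and 2.38 (log2 change 1.65, SE 0.24, limma, adjusted p = 0.0247). Both TRB3-ZF libraries lay well above both fwa libraries at each of them, and none of these genes had a H3K4me3 peak in TRB3-ZF or fwa. In Col-0 the same regions had folds of 2.13 and 2.20, 1.80 and 2.47, and 2.39 and 3.11, below both TRB3-ZF libraries in each case. In TRB1-ZF and TRB2-ZF replicate 1 they had 3.37 and 3.22, 4.02 and 3.70, and 2.68 and 4.29, between the fwa and the TRB3-ZF values. Each of the 3 was still called with each of the 4 libraries left out in turn, with log2 changes of 1.52 to 2.17 for AT5G42500. The region at AT5G42500 had an adjusted p of 0.0570 (limma) with the fold averaged over the peak widths.

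With the block, the next largest rises, which were chosen after their values were seen, were at AT5G56990, a cystatin-like gene, at AT1G51320, an F-box gene, and at AT4G22410. AT5G56990 had 5.92 and 5.88 in TRB3-ZF, against 2.56 and 1.69 in fwa (log2 change 1.51, limma, adjusted p = 0.0629, and 5.66e-07 with the block). AT1G51320 had 5.73 and 8.39, against 2.69 and 2.42 (1.44, limma, 0.0629, and 2.48e-06 with the block). AT5G38350, a disease resistance gene of the NBS-LRR class, had 6.96 and 6.67 in TRB3-ZF, against 3.24 and 2.06 in fwa. Of the largest falls, chosen in the same way, AT5G44970 (RNI-like and FBD-like domains) had 2.51 and 1.67 in TRB3-ZF, against 5.38 and 5.01 in fwa (log2 change −1.34, limma, adjusted p = 0.0816, and 1.23e-05 with the block). The F-box gene AT5G56370 had 2.62 and 3.30, against 7.56 and 7.10 (−1.32, limma, 0.0629, and 1.84e-05 with the block). The F-box gene AT3G24580 had 3.56 and 2.17, against 6.98 and 6.74, AT2G45840, a glucosyltransferase-like gene, had 1.75 and 2.09, against 2.99 and 7.42, and GAUT11, a galacturonosyltransferase gene of pectin synthesis, had 4.22 and 2.22, against 8.53 and 6.16. At these 5 genes the folds of Col-0 were 4.49 to 6.39, above both TRB3-ZF libraries in each case.

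None of 85 genes in lists of PRC2, H3K27 demethylases, TRB and JMJ14 proteins, floral and flowering regulators, homeobox, seed, auxin transport, photosynthesis and FWA genes gained a H3K27me3 peak in both TRB3-ZF libraries. Only FIE lost it, whereas 48 had a peak in all 4 lists and 31 in none. Over all 27444 genes, 1.67% gained a peak, 1.58% lost it, 22.9% had one in all 4 lists and 61.9% in none. For 85 genes, 0 gains and 1 loss are near these shares. FIE encodes the WD40 subunit of PRC2, and its peak in fwa covered 293 and 117 bp of its span as the edge of a region that all 4 libraries had. It was no longer lost when at least 150 bp had to be covered. All 13 floral MADS-box genes, all 4 class I KNOX genes, which maintain the meristem, and 10 of 11 WOX genes had the mark in all 4 lists. The H3K27 demethylases REF6, ELF6, JMJ13, JMJ30 and JMJ32 had it in none. Of 49 genes in the lists that could be fitted, limma called 0 without the block and 0 rises and 2 falls with it, against 5.11% and 3.54% of all regions, and the median log2 change was −0.13 against −0.02 over all regions fitted. SEP4, a floral MADS-box gene, had folds of 2.63 and 2.66 in TRB3-ZF, against 4.51 and 7.18 in fwa (log2 change −1.11, limma, adjusted p = 0.0949, 0.000536 with the block, and 0.00565 without fwa replicate 1). MEA, the PRC2 methyltransferase of the endosperm, had 3.06 and 3.47, against 5.50 and 6.11 (−0.83, limma, 0.131, and 0.0128 with the block). Both genes were below both fwa libraries in both TRB3-ZF libraries, as were 24.2% of all regions fitted. FLC, the repressor of flowering, had 9.06 and 8.25 in TRB3-ZF and 10.9 and 5.61 in fwa, which overlapped, and SVP had the mark in the replicate 1 libraries only, with 6.96 in TRB3-ZF and 6.82 in fwa.

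FWA itself (AT4G25530, chr4:13038360-13042464, plus strand) was in the class of a single list. Its only H3K27me3 peak was in TRB3-ZF replicate 2, with a fold of 2.53 and a -log10 q of 4.78. This peak (chr4:13037589-13037872, 284 bp) lay between 771 and 487 bp upstream of the gene start as annotated in RefSeq, and TRB3-ZF replicate 1 and both fwa libraries had none called. The H3K4me3 fold at FWA was 8.73 and 4.39 in TRB3-ZF, against 11.1, 7.93 and 10.4 in fwa. TRB3-ZF was lower within both replicate numbers, but the deposited folds of the groups overlapped. On the centred log2 scale of the fit, which held replicates 1 and 2, the groups did not overlap. The share of all genes without overlap on that scale was not computed, so this describes FWA only. The log2 change was −0.67 (SE 0.27, replicates 1 and 2, limma, adjusted p = 1.00). It was −0.997 without TRB3-ZF replicate 1 and −0.346 without TRB3-ZF replicate 2. Without fwa replicate 1 or 2 it was −0.680 or −0.663.

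Genes that lost H3K27me3 differed little in H3K4me3 between the genotypes. On genes that gained H3K27me3, the share with H3K4me3 was somewhat lower in TRB3-ZF, with 2 libraries per genotype. Of the 459 gained genes, 179 had a H3K4me3 peak in all 4 libraries and 202 in none. Of the 434 lost genes, 198 had it in all 4 and 173 in none, compared with 16334 and 8434 of all 27444 genes. H3K4me3 peaks lay on 45.8% and 45.5% of the gained genes in TRB3-ZF, against 47.9% and 51.4% in fwa replicates 1 and 2 and 49.9% in replicate 3. The mean difference was −4.03 percentage points, compared with −0.736 over all genes, and the libraries did not overlap (exact permutation test, two-sided, p = 0.333, n = 2 each, the smallest possible). It was −2.29 points without fwa replicate 2, −6.54 with a -log10 q of at least 10 and −7.28 with gene bodies only. With the H3K4me3 lists cut to the length of the shortest it was −4.03 points. The libraries were then no longer fully apart (exact permutation test, two-sided, p = 0.667). On the lost genes the shares were 54.1% and 52.1% in TRB3-ZF and 54.4% and 50.7% in fwa replicates 1 and 2, which overlapped (0.576 points, exact permutation test, two-sided, p = 1, n = 2 each). Adding fwa replicate 3, with 56.2%, turned the sign of that difference to −0.653 points, and leaving out TRB3-ZF replicate 1 or fwa replicate 2 turned it to −0.461 or −1.27 points. Among genes with a H3K4me3 peak in all 4 libraries, the median log2 change of the H3K4me3 fold was −0.12 over 179 gained genes, −0.04 over 198 lost genes and −0.02 over all 16334. It was above 0 for 31.8% of the gained, 43.9% of the lost and 46.8% of all genes. The limma fit called none of the 16334 genes, with 260 at an unadjusted p under 0.05, and with the replicate block it called 1 (0.00612%).

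Both marks moved in both libraries of each at 6 genes, against 28 gains (0.102%) and 41 losses (0.149%) of a H3K4me3 peak over all genes. They moved in opposite directions at 3 of them, a count that was 6 with a -log10 q of at least 10 and 8 to 24 with a library left out. AT4G14746 and AT4G26288 gained H3K27me3 and lost H3K4me3, with H3K27me3 folds of 2.78 and 2.29, and of 2.28 and 5.57, in TRB3-ZF and none called in fwa. Their H3K4me3 folds were 1.93, 2.85 and 2.58, and 2.24, 3.59 and 3.19, in fwa, with no peak in TRB3-ZF. AT5G61100, described above among the lost regions, gained H3K4me3 with 2.07 and 3.04 in TRB3-ZF and none called in the 3 fwa libraries. The zinc finger gene ZF3 gained both marks, although fwa replicate 3 also had H3K4me3 there (2.17). PLL3, a phosphatase gene related to POLTERGEIST, and AGL101, a MADS-box gene, lost both, although fwa replicate 3 also lacked a H3K4me3 peak at AGL101. The H3K27me3 peaks at ZF3 and AGL101 covered at most 77 bp of the gene span. At AT3G29633, which lost a H3K27me3 region and had H3K4me3 in every library, the H3K4me3 fold was 7.14 and 10.5 in TRB3-ZF, against 4.25, 4.82 and 3.74 in fwa. The groups did not overlap, as in replicates 1 and 2 at 9.86% (higher) and 2.68% (lower) of the 16334 genes, and the change was 0.87 on the log2 scale (SE 0.38, replicates 1 and 2, limma, adjusted p = 1.00).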

How the data were processed

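Per the methods, the authors trimmed the reads, aligned them to TAIR10 with Bowtie 2 (unique sites, no mismatch), used SAMtools 1.9 to drop duplicate reads, ran the MACS2 2.1.1 peak caller and took out sites that came up in several Col-0 replicates. The control of the peak calls is not given in the sources used here, and the submitters' processing notes name Bowtie2 2.1.0. The authors' lists give for each peak the fold enrichment as a ratio over its background, the -log10 q and the summit as an offset in bp, another deposited value. The lists hold no counts, so the depth per library is unknown and no interval or floor could be given. Deposited p-values were not used, and neither were the replicate 2 lists of TRB1-ZF and TRB2-ZF, which held the same 11620 peaks.

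Of 108 samples, 34 with a peak list were used. Repeated intervals and organelle peaks were dropped, and the other peaks were merged. Genes were the 27444 protein-coding of 37899 genes of RefSeq TAIR10.1 with 1 kb upstream. The strongest fold on a region or gene was taken as log2, centred on the library median and fitted with limma 3.58.1 (R 4.3.3) with Benjamini-Hochberg adjustment at 0.05. Library values were compared by exact permutation tests. The lists, regions and figures were computed in Python 3.11.15 with numpy 2.4.6, pandas 2.3.3 and matplotlib 3.10.9. In data simulated for the H3K27me3 comparison over 5284 regions, limma recovered 76 of 100 planted log2 changes of 1 and 100 of 100 of 2, with 9 unplanted calls. For the H3K4me3 comparison over 16334 genes it recovered 37 and 96 of 100, with 17 unplanted calls, and 81 unplanted calls with the replicate block. For the fit without the block, the simulated libraries varied independently, with no effect of the replicate number. Planting many large changes also eases the adjusted threshold. These counts therefore check the fit and do not give its power in the real libraries.

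Replicate numbers were treated as pairing the libraries in the comparisons within a number and in the fit with the replicate block. The main limma fit and the exact permutation tests did not use them. Deviations from the group means of equally numbered libraries correlated at 0.513 to 0.588 in 12 H3K4me3 pairs of TRB-ZF and fwa genotypes and at 0.266 in H3K27me3. The labels do not say what a number marks. With 2 libraries per group the pairs of a genotype pair are mirror images, so the H3K4me3 pairs give 6 distinct values and the H3K27me3 pairs 1.

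The members, the gene lists and the rule for named genes were chosen with earlier results of these data known. The rule named FWA, the 10 gained and 10 lost regions of highest mean fold, the 5 largest rises and falls past the limma threshold, genes of the lists that gained or lost a peak, and genes with opposite moves of both marks. Alternatives were a stricter peak threshold, equal list lengths, joined peaks, a minimum overlap, other gene spans, other scalings and measures of fold, the replicate block and leaving out each library.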

Additional observations from a re-analysis of the deposited data

How the results depend on the processing

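Of 219 values recomputed under the alternatives, 147 kept their direction and size or call, and the others are given here where they concern a main comparison. With a -log10 q of at least 10, 344 regions were gained and 363 lost, and with peaks up to 500 bp apart joined, 386 and 344. Leaving out a library, which makes each class easier to enter, gave 1062 to 2632 gained and 863 to 1972 lost regions, and 632 to 870 gained and 695 to 1034 lost genes. Within replicate number 1 and 2, alternatives chosen after seeing the data, 2220 and 2917 regions were gained and 1765 and 2319 lost, and 1048 and 1064 genes were gained and 1082 and 1343 lost. With gene bodies only, 289 genes were lost. The cause of the other shifts was not tested.

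The difference in peak number between TRB3-ZF and fwa turned to −217 with the stricter threshold and ran from −767 to 1784 without a library, and that in covered length from −0.247 to 2.87 Mb, with −0.0339 Mb without TRB3-ZF replicate 2. The H3K4me3 difference on lost genes turned to −1.27 points with the stricter threshold and −0.653 with fwa replicate 3, and ran from −1.27 to 2.42 without a library. The fit of H3K27me3 fold gave 11 rises and 1 fall without centring, 8 and 1 on log2(fold + 1), 0 rises with a -log10 q of at least 10 in every list, a filter that removes the 3 called regions by their weak fwa peaks and so does not test them, 270 and 187 with the replicate block, and 13 to 70 rises and 4 to 47 falls without a library, where the lone library of a genotype is assumed to vary like the other pair. H3K4me3 fold had 1 rise without centring and 1 with the replicate block.

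Limits are the 2 libraries per genotype, the unknown depth, and lists whose peak number and width, and H3K4me3 at floral genes, differed more between replicate numbers than between genotypes. A missing peak can be a weak one, and classes of regions near the calling threshold move with it. The block fit borrows its error from all regions.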

Other observations

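The splits by replicate number also differed in H3K4me3. Of the 234 genes with H3K27me3 in the replicate 1 libraries of both genotypes only, 9.83% had H3K4me3 in the replicate 2 libraries only and 1.28% in the replicate 1 libraries only. Of the 341 genes with H3K27me3 in the replicate 2 libraries only, the shares were 0.587% and 9.97%, and over all genes they were 1.60% and 2.82%. SVP, a repressor of flowering, and the auxin transporter gene PIN4 were in the first class. SVP had H3K4me3 folds of 3.12 and 7.69 in TRB3-ZF and of 3.72, 10.9 and 5.22 in fwa, lower in the replicate 1 library than in the replicate 2 library of each genotype, and PIN4 had 15.2 and 5.92 in TRB3-ZF and 16.7, 7.90 and 13.8 in fwa, the other way round.

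AT5G01015, an uncharacterized gene without a H3K27me3 peak, was the gene called for H3K4me3 with the replicate block. Its H3K4me3 fold was 13.9 and 9.41 in TRB3-ZF, against 2.99 and 2.17 in fwa replicates 1 and 2 (log2 change 2.09, limma, adjusted p = 0.967, and 0.0308 with the block). The third fwa library, which the fit left out, had 9.32 and lay within the TRB3-ZF range.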
